A study of Mus musculus with 45 samples.

Results

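At day 10 of life, inguinal fat of male C57BL/6J pups raised under lactation under-nutrition (LUN) was set against that of pups raised under the control condition. The members are the 3 LUN and 3 control arrays whose titles give day 10, 6 of the 45 arrays of the series, and every gene on them was considered. Litters of both groups were set to 8 pups. LUN dams were given 50% of the amount of breeder diet that control mothers had eaten over the preceding day, and control dams ate that diet (22 kcal% fat) ad libitum. Each group was 1 RNA pool made from 12 male pups, and the 3 arrays of a group measured that same pool. The p-values given here therefore rest on the spread between arrays of a pool and hold no variation between mice. In whole tissue, fewer cells of a type and less RNA per cell cannot be told apart.

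Inguinal fat is a subcutaneous depot that enlarges during suckling, when adipocytes take up fatty acids from milk and store them as triacylglycerol in lipid droplets. Leptin, secreted by adipocytes, reports the size of that store, and genes of lipid synthesis are held high by feeding and insulin. In food shortage stored lipid is released, fatty acids replace glucose as fuel, and glucocorticoids rise. The depot of young mice also holds brown-type adipocytes, which burn fat for heat through uncoupling protein 1 (Ucp1).

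The promoters of Lep, Irf4 and Cyp2e1, the genes on which the day 10 result turns most, are shown first. Of 117 genes with described values, 88 had a promoter in the table used. Each is 300 bases of RefSeq sequence (GRCm38.p6, plus strand, 250 bases before and 50 after the annotated start), written 5′ to 3′. Lep lies at chr6:29059971-29060270, Irf4 at chr13:30748983-30749282 and Cyp2e1 at chr7:140763569-140763868. Capitals mark TTGCGCAA, a palindrome that C/EBP factors can bind, in Lep and TATAAA, the core of the TATA box, in the other two.
Lep: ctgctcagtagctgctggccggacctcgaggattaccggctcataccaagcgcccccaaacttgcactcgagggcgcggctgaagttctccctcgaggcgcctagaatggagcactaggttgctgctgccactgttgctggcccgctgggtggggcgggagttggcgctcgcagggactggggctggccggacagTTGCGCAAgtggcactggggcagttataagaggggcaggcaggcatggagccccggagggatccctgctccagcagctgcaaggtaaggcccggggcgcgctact
Irf4: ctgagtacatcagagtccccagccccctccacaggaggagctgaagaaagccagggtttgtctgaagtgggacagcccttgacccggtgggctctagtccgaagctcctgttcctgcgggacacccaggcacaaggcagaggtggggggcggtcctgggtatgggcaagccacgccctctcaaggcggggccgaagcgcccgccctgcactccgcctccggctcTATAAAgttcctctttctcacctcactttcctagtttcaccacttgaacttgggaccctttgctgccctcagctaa
Cyp2e1: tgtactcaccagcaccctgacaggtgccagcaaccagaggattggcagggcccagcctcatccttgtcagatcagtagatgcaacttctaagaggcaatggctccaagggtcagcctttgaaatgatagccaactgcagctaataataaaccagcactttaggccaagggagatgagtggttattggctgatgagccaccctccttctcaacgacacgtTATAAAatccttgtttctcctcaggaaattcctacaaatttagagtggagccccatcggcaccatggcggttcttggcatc
TTGCGCAA was found from -55 to -48 relative to the start of Lep and in 0.183% of the 32851 promoters of the same length. TATAAA stood from -26 to -21 in Irf4 and from -31 to -26 in Cyp2e1, and in 13.6% of all promoters. Among the other motifs searched on both strands, CCAAT (37.4% of promoters) occurred 2 times in Cyp2e1, and CACGTG (7.15%) and TCACNCCAC (1.24%), an E-box and a sterol response element, had no match in these windows. No marked motif overlapped another. A match is a run of letters and not a measured binding site. The motifs were chosen after the values had been seen.

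Values are signals after quantile normalization of the deposited intensities, in kilounits (kU), and changes are log2 fold changes of LUN over control. Calls are genes at a Benjamini-Hochberg adjusted p under 0.05 in limma, adjusted over all 33012 probes. Of these, 189 were higher in LUN fat (0.573%) and 270 were lower (0.818%). Among 13840 named genes, 92 were called higher (0.665%) and 173 lower (1.25%), and the median log2 change of all named genes was -0.071. The shares of 0.665% and 1.25% are the background for every list count at day 10 given below. The 3 LUN and 3 control signals did not overlap for 3559 named genes (25.7%). When each pool counted as 1 replicate and the spread came from the other pools, limma called 0 probes, with 1727 at an unadjusted p under 0.05. That fit used additive diet and age effects, so its spread also holds diet effects that change with age. It therefore cannot measure the spread between mice. The calls given here separate these 2 pools and do not cover the spread between mice. Raw medians were 925.5 to 1151 units on the LUN arrays and 673.3 to 893.5 on the control arrays. Each LUN array correlated with the other LUN arrays at a mean of 0.911 to 0.916 over all probes but with the control arrays at 0.922 to 0.933, whereas control arrays correlated among themselves at 0.955 to 0.961. Of 10 adipocyte markers listed, 7 had a named probe, and in LUN fat Fabp4, Cidec, Pparg and Cebpa stood at the 99.3, 96.1, 94.8 and 90.8 percentile of all probes, against 99.7, 95.8, 96.6 and 93.2 in control fat. Leptin stood at the 81.8 percentile in LUN and at 97.5 in control fat, and Retn at 67.4 and 77.1.

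**Figure D1:**
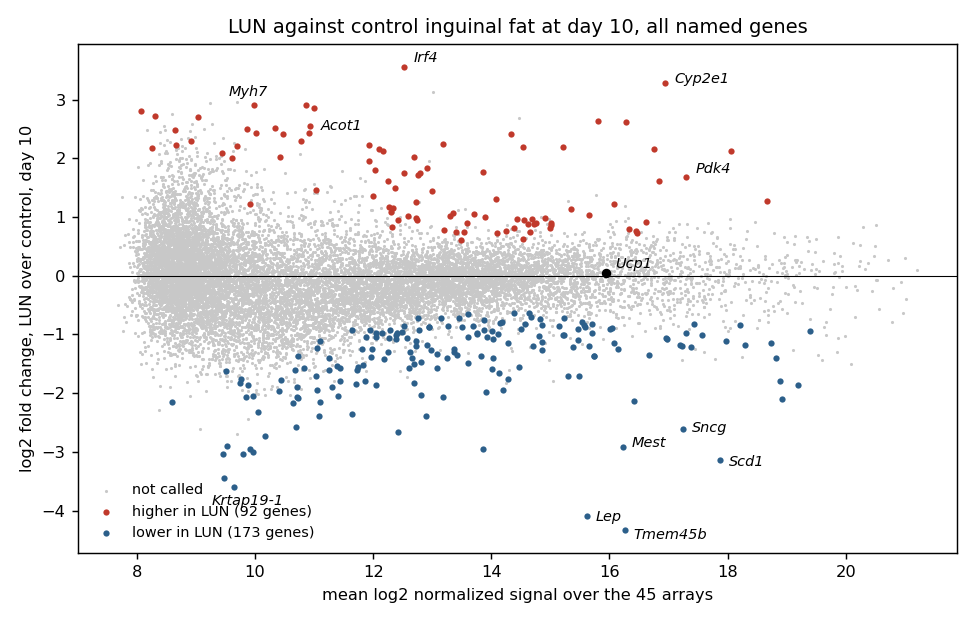
Log2 fold change of LUN over control at day 10 (vertical) against mean log2 signal over 45 arrays (horizontal), 1 point per named gene, with 92 genes called higher in red, 173 called lower in blue, and Ucp1 in black. Lep and Tmem45b lie lowest and Irf4 and Cyp2e1 highest among called genes, while Ucp1 lies on the zero line.

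The largest decreases called among named genes were those of Tmem45b and Lep, and genes whose level goes with fat mass, such as Mest and Sncg, were lower with them. Lep, which encodes leptin, read 7.5, 9.33 and 8.87 kU on the LUN arrays, against 153, 146 and 139 on the control arrays. The groups were far apart, a 17-fold lower mean in LUN fat (log2 -4.09 ± 0.28 (SE), adjusted p = 1.2e-11). Tmem45b, a transmembrane protein gene, read 7.98, 5.99 and 6.88 kU on the LUN arrays, against 108, 114 and 216 on the control arrays, 21-fold lower in LUN (log2 -4.33 ± 0.30 (SE), adjusted p = 1.2e-11). One control array was well above the other two, but none came near the LUN arrays. Mest, an imprinted gene whose level follows fat mass expansion in mice, read 63.4, 60 and 69.8 kU on the LUN arrays, against 496, 539 and 422 on the control arrays (log2 -2.91 ± 0.23 (SE), adjusted p = 1.5e-10), a 7.54-fold difference in the means. Sncg, encoding gamma-synuclein, which is abundant in adipocytes, read 55.6, 42 and 42.4 kU on the LUN arrays, against 380.1, 260.2 and 226 on the control arrays (log2 -2.61 ± 0.34 (SE), adjusted p = 9.8e-06). Its relative Sncb, encoding beta-synuclein, read 4.16, 5.79 and 5.08 kU on the LUN arrays, against 26.5, 50.4 and 43.1 on the control arrays (log2 -2.96 ± 0.33 (SE), adjusted p = 4.3e-07). All 5 genes stayed called whichever array was left out.

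Of the 6 measured genes on a list of fat expansion markers, 4 were called lower and none higher, beside 1.25% of all named genes called lower. All 6 had a negative change (median log2 -1.42). The list was chosen with earlier results of these data known, so its count is not an independent result. Besides Mest and Sncg, the called members were Bmp3, encoding a bone morphogenetic protein, and Nnat, an imprinted proteolipid gene. Bmp3 read 6.95, 5.87 and 6.58 kU on the LUN arrays, against 24.9, 15.8 and 15.7 on the control arrays (log2 -1.51 ± 0.33 (SE), adjusted p = 0.011). Nnat read 294, 256 and 293 kU on the LUN arrays, against 626, 694 and 594 on the control arrays (log2 -1.18 ± 0.28 (SE), adjusted p = 0.02). The uncalled members were Fgf1 at log2 -1.32 and Sfrp5, a secreted Wnt inhibitor, at -0.34. With 1 array left out, the call ended for Bmp3 without control array 1 (adjusted p at most 0.111) and for Nnat without LUN array 2, LUN array 3, control array 1, control array 2 or control array 3 (adjusted p at most 0.102). On a list of 18 imprinted growth genes, into which Nckap1 came through a shared synonym, only Mest and Nnat were called. The list median was log2 -0.49, with Peg3 at -1.54, Dlk1, a preadipocyte gene, at -0.50 and Peg10 at 0.53.

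**Figure D2:**
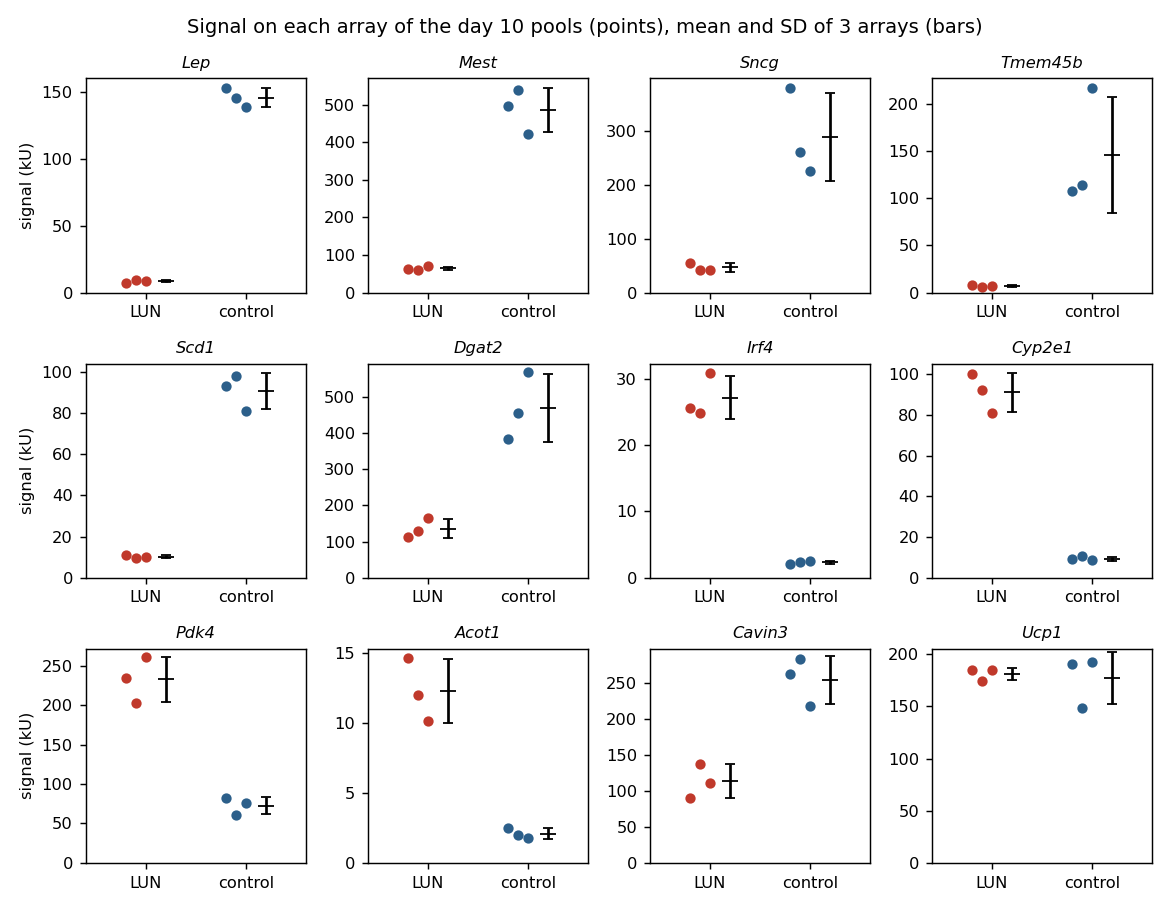
Signal in kU on each array, 3 LUN arrays on the left of each panel and 3 control arrays on the right, with mean and SD beside the points. All genes shown but Ucp1 were called, and the rule for the largest changes took only genes whose groups did not overlap. That the groups are apart in these panels is therefore no separate result. Over all named genes the groups did not overlap for 25.7%. For Ucp1 the LUN arrays lie within the range of the control arrays.

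Lipid synthesis genes were lower in LUN fat where they were called. Scd1, the desaturase that makes monounsaturated fatty acids, read 11.2, 9.73 and 9.91 kU on the LUN arrays, against 93.1, 98 and 81.1 on the control arrays. Its mean was 8.84-fold lower in LUN fat (log2 -3.14 ± 0.71 (SE), adjusted p = 0.014), and its SE was wide although the day 10 arrays lay close together, because the fit pools the spread of all 15 groups. Acly, which makes cytosolic acetyl-CoA from citrate, read 3.12, 2.97 and 2.16 kU on the LUN arrays, against 6.27, 5.08 and 5.6 on the control arrays (log2 -1.05 ± 0.22 (SE), adjusted p = 0.0066). Acss2, which makes it from acetate, read 3.37, 2.24 and 1.96 kU on the LUN arrays, against 4.74, 5.63 and 4.33 on the control arrays (log2 -0.99 ± 0.20 (SE), adjusted p = 0.0054). These were the only calls among 15 fatty acid synthesis genes, of which 14 had a negative change (median log2 -0.55). Over all named genes 1.25% were called lower. Fasn, encoding fatty acid synthase, was at log2 -0.88, Scd2 at -1.41, Srebf1, a regulator of the pathway, at -0.43 and Pcx, encoding pyruvate carboxylase, at 0.34, none of them called. Leave-one-out fits ended the call for Scd1 without LUN array 3, control array 1 or control array 2 (adjusted p at most 0.067), Acly without LUN array 3 or control array 1 (adjusted p at most 0.075) and for Acss2 without LUN array 3 or control array 2 (adjusted p at most 0.069).

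In cholesterol synthesis, 2 of 15 genes were called lower and none higher (median log2 -0.75), beside 1.25% of all named genes called lower. Cyp51, the lanosterol demethylase, read 2.03, 3.13 and 1.72 kU on the LUN arrays, against 5.67, 4.49 and 5.14 on the control arrays (log2 -1.2 ± 0.25 (SE), adjusted p = 0.0055). Msmo1, the methylsterol oxidase of a later step, read 12.9, 15.8 and 14.3 kU on the LUN arrays, against 25.1, 25.2 and 25.2 on the control arrays (log2 -0.82 ± 0.17 (SE), adjusted p = 0.0066), with the control arrays almost equal. Uncalled members included Sc5d at log2 -1.43, Hmgcs1 at -0.94, Insig1 at -0.88 and Fdft1, the squalene synthase gene, at 0.29. The call was lost for Cyp51 without LUN array 3 (adjusted p at most 0.068).

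For triacylglycerol storage, Dgat2, which adds the last acyl chain, read 112, 129 and 164 kU on the LUN arrays, against 384, 455 and 569 on the control arrays, 3.47-fold lower in LUN fat (log2 -1.79 ± 0.31 (SE), adjusted p = 6.5e-04). It was the only call among 12 synthesis genes (median log2 -0.16). G0s2, an inhibitor of the main triacylglycerol lipase, read 56.2, 43.4 and 41 kU on the LUN arrays, against 122, 122 and 90 on the control arrays (log2 -1.25 ± 0.28 (SE), adjusted p = 0.013), and Plin4, a droplet coat protein gene, read 37.5, 34.1 and 34.6 kU on the LUN arrays, against 82, 62.2 and 56.7 on the control arrays (log2 -0.90 ± 0.22 (SE), adjusted p = 0.022). They were the calls among 14 droplet and lipolysis genes, whose median was log2 -0.13. Pnpla2, the gene of that lipase, was at 0.23 and Plin1, the main droplet coat of white adipocytes, at -0.47. With 1 array left out, the call ended for G0s2 without LUN array 2, LUN array 3, control array 1 or control array 2 (adjusted p at most 0.084) and for Plin4 without LUN array 2, LUN array 3, control array 1 or control array 2 (adjusted p at most 0.193).

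Uptake genes moved both ways. Vldlr, a receptor for triacylglycerol-rich lipoproteins, read 7.91, 8.13 and 4.57 kU on the LUN arrays, against 24.6, 19.8 and 19 on the control arrays (log2 -1.66 ± 0.23 (SE), adjusted p = 2.1e-05). Slc27a1, the fatty acid transport protein FATP1, read 95.9, 81.1 and 79.2 kU on the LUN arrays, against 36.3, 36.4 and 36.2 on the control arrays, 2.35-fold higher in LUN fat (log2 1.23 ± 0.19 (SE), adjusted p = 1.7e-04). Every LUN array exceeded every control array. Median scaling in place of quantile normalization ended the Slc27a1 call (log2 0.69, adjusted p = 0.213). Fabp4, the adipocyte fatty acid binding protein gene, read 474, 748 and 672 kU in LUN fat and 1111, 1005 and 700.1 in control fat and was not called (log2 -0.57). Glucose storage and use had 1 call each: Ppp1r3b, which targets phosphatase 1 to glycogen, read 8.52, 8.75 and 6.14 kU on the LUN arrays, against 26.4, 20.8 and 32.8 on the control arrays (log2 -1.77 ± 0.23 (SE), adjusted p = 7.0e-06), and Hk2, a hexokinase gene, read 14.7, 13.9 and 13.8 kU on the LUN arrays, against 18.8, 23.1 and 27.9 on the control arrays (log2 -0.70 ± 0.17 (SE), adjusted p = 0.023). Leave-one-out fits ended the call for Hk2 without LUN array 2, LUN array 3, control array 2 or control array 3 (adjusted p at most 0.221).

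The largest increases called among named genes were those of Irf4 and Cyp2e1. Irf4, a transcription factor of lymphocytes that adipocytes of fasted mice also express, read 25.7, 24.9 and 30.9 kU on the LUN arrays, against 2.12, 2.31 and 2.49 on the control arrays, 11.8-fold higher in LUN (log2 3.55 ± 0.31 (SE), adjusted p = 2.3e-09). Lymphocyte markers were measured beside it. Summed over 9 T cell markers the signal was 96.1 to 103 kU on the LUN arrays, against 74.9 to 79.8 on the control arrays, and over 7 B cell markers 51.4 to 67.7 kU on the LUN arrays, against 41.4 to 51.3 on the control arrays. None of these markers was called, the median of the T cell markers was log2 0.22 (-0.12 with median scaling), and the part of lymphocytes in the Irf4 difference was not tested.

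Cyp2e1, a cytochrome P450 that oxidizes ethanol and ketones, read 100, 91.9 and 81 kU on the LUN arrays, against 9.16, 10.5 and 8.51 on the control arrays, 9.7-fold higher in LUN (log2 3.28 ± 0.21 (SE), adjusted p = 2.5e-12). Pdk4, the kinase that shuts off pyruvate dehydrogenase in fasting, read 234, 203 and 261 kU on the LUN arrays, against 81.7, 60.7 and 75.9 on the control arrays (log2 1.68 ± 0.18 (SE), adjusted p = 1.4e-07). Acot1, a cytosolic acyl-CoA thioesterase gene, read 14.6, 12 and 10.1 kU on the LUN arrays, against 2.52, 1.96 and 1.79 on the control arrays (log2 2.55 ± 0.48 (SE), adjusted p = 0.002). Near-identical copies of Acot1 could share its probe, and Acot2 was at log2 -0.13. Pdk4 is also a muscle gene, and muscle markers were higher in LUN fat. In the lactation over-nutrition (LON) pool of the same age, from litters of 4 pups whose dam ate a diet with 58 kcal% fat, Pdk4 was higher than in control fat by log2 1.68 (adjusted p = 3.5e-08) and muscle markers were higher too (19 of 26 called, beside 0.889% of all named genes), while Irf4 was at 0.44, Cyp2e1 at 0.10 and Acot1 at 0.66 there, none of them called. That comparison used the same control arrays. In it Lep was lower, at log2 -1.26 (adjusted p = 0.015), Scd1 was higher, at 3.04 (adjusted p = 0.024), and Mest and Dgat2 were at -0.0095 and -0.75. Against those arrays the LUN changes were -4.09 for Lep, -3.14 for Scd1, -2.91 for Mest and -1.79 for Dgat2. The part of muscle in the Pdk4 difference was not tested.

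On a list of 22 glucocorticoid and fasting response genes, into which Mtnr1b came through a shared synonym, 3 were called higher and none lower. Over all named genes 0.665% were called higher. The list median was log2 0.16 (-0.066 with median scaling). The third, beside Irf4 and Pdk4, was Cebpd, a transcription factor of early adipogenesis, which read 33.7, 36.9 and 41.8 kU on the LUN arrays, against 19.6, 19.6 and 20.8 on the control arrays (log2 0.90 ± 0.21 (SE), adjusted p = 0.017). Angptl4, a lipoprotein lipase inhibitor raised by fasting, was at log2 0.74 and Mt1, a metallothionein gene, at 0.81. Direct glucocorticoid targets lay on both sides of zero, with Fkbp5 at 0.35, Sgk1 at 0.53, Tsc22d3 at -0.37 and Klf15 at -0.39, and none was called. The call was lost for Cebpd without LUN array 3, control array 1, control array 2 or control array 3 (adjusted p at most 0.101). With median scaling its adjusted p was 0.586.

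Genes best known from liver moved in both directions, 2 of 23 called higher and 2 lower. Over all named genes 0.665% were called higher and 1.25% lower. With Cyp2e1, Apoc4, an apolipoprotein gene, was higher at 67.9, 49.5 and 48.6 kU in LUN fat and 19.1, 16.6 and 14.3 in control fat (log2 1.72 ± 0.26 (SE), adjusted p = 1.1e-04). Hp, the haptoglobin gene, read 208, 219 and 152 kU on the LUN arrays, against 722, 658 and 689 on the control arrays (log2 -1.85 ± 0.34 (SE), adjusted p = 0.0016). Alb, encoding albumin, was dim and scattered, at 0.278, 0.686 and 0.36 kU in LUN fat and 3.46, 1.74 and 1.0 in control fat (log2 -2.15 ± 0.37 (SE), adjusted p = 6.0e-04). Apoc3 at log2 1.41, Ttr at -1.53 and Apoa1 at 0.59 were not called.

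Signalling genes added single calls. Rgs2, which dampens G protein signals, read 24, 23.3 and 24 kU on the LUN arrays, against 7.09, 6.73 and 7.2 on the control arrays, with each group nearly constant (log2 1.76 ± 0.25 (SE), adjusted p = 2.8e-05). Irs1, the adaptor of the insulin receptor, was higher at 23.1, 22.3 and 27.5 kU in LUN fat and 8.19, 15.1 and 13.1 in control fat (log2 1.04 ± 0.23 (SE), adjusted p = 0.012). Asns, the asparagine synthetase gene induced by amino acid shortage, was higher at 37.4, 31.2 and 32.9 kU in LUN fat and 17.7, 18.1 and 16.7 in control fat (log2 0.95 ± 0.18 (SE), adjusted p = 0.0031), whereas Aars, a tRNA synthetase gene often induced with it, was lower at 2.27, 3.3 and 2.91 kU in LUN fat and 5.13, 5.42 and 6.01 in control fat (log2 -0.98 ± 0.23 (SE), adjusted p = 0.022). Atf3, a stress-induced factor named after its values had been seen, was higher at 10.1, 10.7 and 11.8 kU in LUN fat and 4.39, 4.53 and 3.83 in control fat (log2 1.36 ± 0.28 (SE), adjusted p = 0.0048). The related clock repressors Bhlhe41 and Bhlhe40 moved in opposite directions. Bhlhe41 read 21.3, 15.9 and 16.3 kU on the LUN arrays, against 3.55, 3.83 and 6.1 on the control arrays (log2 2.02 ± 0.40 (SE), adjusted p = 0.0034), and Bhlhe40 read 0.791, 0.776 and 0.408 kU on the LUN arrays, against 1.94, 2.86 and 2.34 on the control arrays (log2 -1.9 ± 0.42 (SE), adjusted p = 0.011). The other 12 clock genes were not called, with Per1 at log2 -0.063, Nr1d1 at -1.13 and Npas2 at 1.55. With 1 array left out, the call ended for Irs1 without LUN array 3 or control array 1 (adjusted p at most 0.173), Aars without LUN array 1, LUN array 3, control array 1, control array 2 or control array 3 (adjusted p at most 0.126) and for Bhlhe40 without LUN array 3 or control array 2 (adjusted p at most 0.102). Irs1, Asns and Atf3 also lost the call with median scaling (adjusted p = 0.342, 0.352 and 0.1).

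Caveolae are the membrane pits that cover adipocytes. Of 10 of their genes 2 were called lower and none higher (median log2 -0.72), beside 1.25% of all named genes called lower. The paper cites caveolae and cytoskeleton genes as reduced by under-nutrition at day 10, from earlier work on this microarray series. Neither list is therefore independent of these data. Cavin3, a coat protein gene, read 90.4, 138 and 111 kU on the LUN arrays, against 262, 283 and 218 on the control arrays (log2 -1.18 ± 0.25 (SE), adjusted p = 0.0078). Ehd2, an ATPase at the neck of the pit, read 93.8, 94.1 and 94.1 kU on the LUN arrays, against 155, 266 and 185 on the control arrays (log2 -1.06 ± 0.23 (SE), adjusted p = 0.0083), with the LUN arrays nearly equal. Cav1, the core component, read 85.1, 69.4 and 81.4 kU on the LUN arrays, against 242, 219 and 178 on the control arrays without passing the test (log2 -1.43 ± 0.43 (SE), adjusted p = 0.108). Cav2 was at log2 -0.71, Cavin1 at -0.73 and Cavin2 at -0.89, and the muscle forms Cav3 and Cavin4 were at 1.42 and 0.84. With median scaling, limma called Cav1 (log2 -1.87, adjusted p = 0.0268), Cav2 (-1.225, 0.00907) and Cavin1 (-1.09, 0.0331) lower. Cavin2 did not pass there (adjusted p = 0.102). Leave-one-out fits ended the call for Cavin3 without LUN array 1 or control array 2 (adjusted p at most 0.062) and for Ehd2 without control array 2 (adjusted p at most 0.115). In the cytoskeleton list (19 genes, median log2 -0.11) Tuba1a, an alpha-tubulin gene, was the only call, at 318, 214 and 355 kU in LUN fat and 1491, 1091 and 1174 in control fat (log2 -2.1 ± 0.49 (SE), adjusted p = 0.018). The call was lost for Tuba1a without LUN array 2, control array 1, control array 2 or control array 3 (adjusted p at most 0.103). Alpha-tubulin genes are similar in sequence, so that its probe could read related transcripts.

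Matrix genes were lower in LUN fat where called. Of 22 collagen enzymes and matrix genes 3 were called lower and none higher, beside 1.25% of all named genes called lower. Of the 22, 20 had a negative change, and the median was log2 -0.67. Lox, which crosslinks collagen and elastin, read 16.9, 17.4 and 16 kU on the LUN arrays, against 30.8, 27.2 and 28.8 on the control arrays (log2 -0.79 ± 0.18 (SE), adjusted p = 0.016). P4ha2, a collagen prolyl hydroxylase gene, read 20.8, 26.9 and 16.8 kU on the LUN arrays, against 37.6, 37.9 and 43.8 on the control arrays (log2 -0.91 ± 0.20 (SE), adjusted p = 0.0086), and Postn, encoding periostin, read 307, 528 and 377 kU on the LUN arrays, against 677, 1000 and 728 on the control arrays (log2 -1.0 ± 0.26 (SE), adjusted p = 0.038). Of 15 collagens 1 was called, Col15a1 of the basement membrane zone, at 73.4, 100.2 and 60.4 kU in LUN fat and 132, 200.4 and 183 in control fat (log2 -1.15 ± 0.19 (SE), adjusted p = 4.8e-04), beside a list median of -0.34. With 1 array left out, the call ended for Lox without LUN array 3, control array 1 or control array 3 (adjusted p at most 0.097), P4ha2 without LUN array 3 or control array 3 (adjusted p at most 0.099) and for Postn without LUN array 1, LUN array 3, control array 1, control array 2 or control array 3 (adjusted p at most 0.243). Emp1, Mfap4, Ogn and Prelp, named after their values had been seen, were lower by larger steps. Emp1, an epithelial membrane protein gene, read 53.9, 54.7 and 56.2 kU on the LUN arrays, against 208, 231 and 287 on the control arrays (log2 -2.13 ± 0.26 (SE), adjusted p = 3.6e-06). Mfap4, a microfibril protein gene, read 30.4, 24.7 and 24.5 kU on the LUN arrays, against 114, 112 and 107 on the control arrays (log2 -2.07 ± 0.40 (SE), adjusted p = 0.0028). The small proteoglycan genes Ogn and Prelp changed by log2 -1.22 and -1.34 (adjusted p = 8.1e-05 and 0.0036).

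Marker sums of 3 stromal lists were lower on every LUN array than on any control array. The 3 LUN and 3 control arrays also did not overlap for 25.7% of all named genes taken singly. A sum gives most weight to its brightest members. Over 12 preadipocyte and fibroblast markers the summed signal was 1404 to 1551 kU on the LUN arrays, against 1943 to 2653 on the control arrays. Over 16 endothelial markers it was 482 to 582 kU on the LUN arrays, against 603 to 699.5 on the control arrays, and over 14 macrophage markers 573 to 748 kU on the LUN arrays, against 762 to 920.4 on the control arrays. Only 1 member of each list was called: Dpt, the matrix protein dermatopontin, at 123, 99 and 98 kU in LUN fat and 286, 216 and 231 in control fat (log2 -1.19 ± 0.28 (SE), adjusted p = 0.02), Mmrn2, an endothelial surface protein, at 7.1, 9.23 and 8.64 kU in LUN fat and 18.6, 19.1 and 27.4 in control fat (log2 -1.37 ± 0.24 (SE), adjusted p = 8.3e-04), and Mrc1, the mannose receptor of macrophages, at 20.6, 21.7 and 22.9 kU in LUN fat and 55, 42.9 and 36.6 in control fat (log2 -1.02 ± 0.26 (SE), adjusted p = 0.036). F13a1, Folr2 and Stab1, which resident macrophages express, were also called lower, at log2 -1.4, -1.37 and -1.25, and were named after their values had been seen. Leave-one-out fits ended the call for Dpt without LUN array 2, LUN array 3, control array 1 or control array 3 (adjusted p at most 0.133), Mrc1 without any 1 of the 6 arrays (adjusted p at most 0.24), F13a1 without LUN array 3 (adjusted p at most 0.067), Folr2 without LUN array 1, LUN array 2, LUN array 3, control array 1 or control array 3 (adjusted p at most 0.36) and for Stab1 without any 1 of the 6 arrays (adjusted p at most 0.211). Stab1 also lost it with cyclic loess. Of 13 smooth muscle and pericyte markers (median log2 -0.1, 4 positive) only Kcnj8, a potassium channel gene, was called, at log2 -0.85 (adjusted p = 0.018). That call was lost without LUN array 2, LUN array 3, control array 1 or control array 3 (adjusted p at most 0.162). The part of cell composition in the matrix and caveolae differences was not tested.

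**Figure D3:**
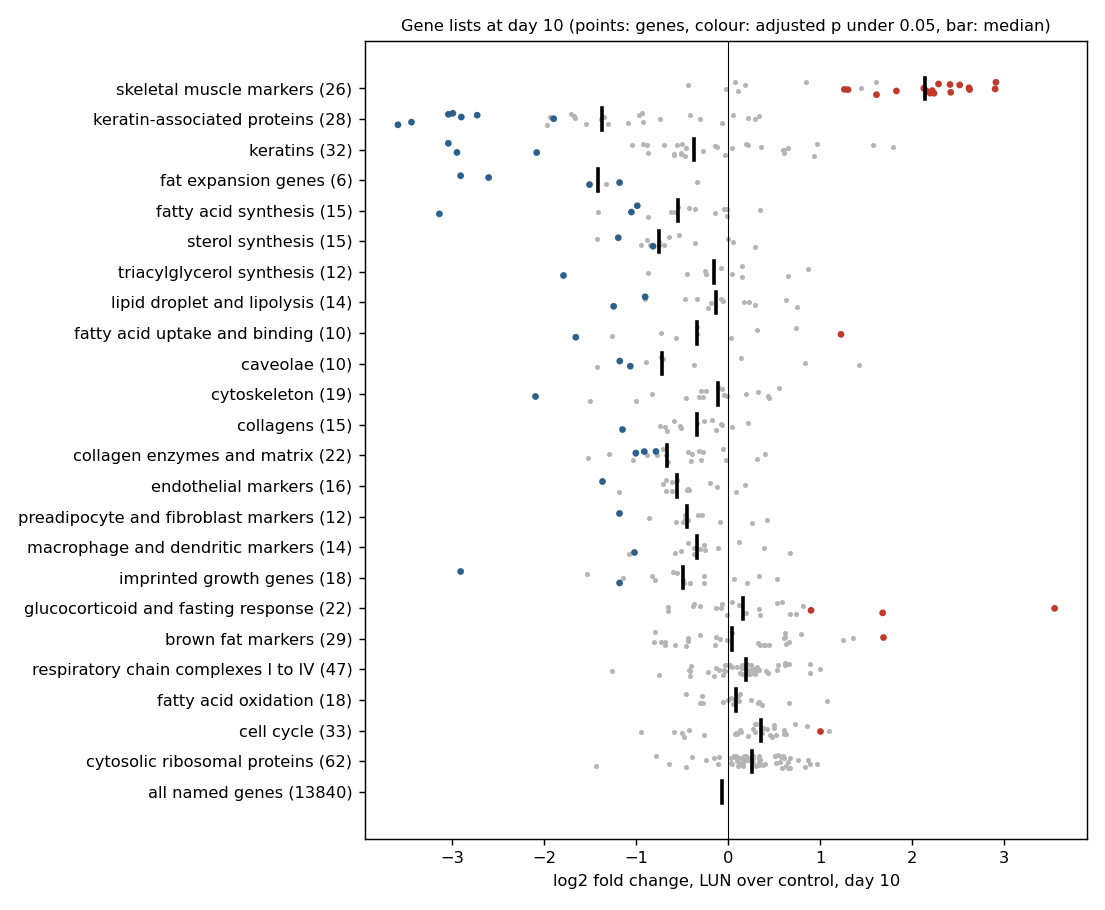
Log2 fold change of LUN over control at day 10 (horizontal) for the measured members of each gene list, whose number stands in brackets. Coloured points passed the adjusted p of 0.05, red higher and blue lower in LUN, and the black bar is the median, which for all named genes lies at -0.071.

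Skeletal muscle markers were higher in the LUN pool. Of 26 muscle markers 18 were called higher and none lower, beside 0.665% of all named genes called higher. These markers made up 18 of the 92 genes called higher. Tnnt3, fast troponin T, read 95, 86 and 104 kU on the LUN arrays, against 18.4, 13.7 and 14.2 on the control arrays (log2 2.63 ± 0.20 (SE), adjusted p = 7.0e-11). Ckm, muscle creatine kinase, read 33.1, 31.2 and 28.7 kU on the LUN arrays, against 6.92, 6.8 and 6.52 on the control arrays (log2 2.2 ± 0.19 (SE), adjusted p = 1.6e-09), and Myh7, the slow myosin heavy chain, read 7.61, 9.01 and 8.0 kU on the LUN arrays, against 0.885, 1.04 and 1.39 on the control arrays (log2 2.91 ± 0.44 (SE), adjusted p = 8.9e-05). The regulators of muscle precursor cells Myod1, Myog and Pax7 were at log2 0.072, -0.022 and 0.84, none called. Other muscle genes among the largest increases were Mb at log2 2.91, Myot at 2.85, Tnnc2 at 2.62, Tnnc1 at 2.52, Myoz1 at 2.43, Mybpc1 at 2.42, Pvalb at 2.41 and Tnnt1 at 2.29. With 1 array left out, the call ended for Mb without control array 1 or control array 3 (adjusted p at most 0.08), Tnnc1 without any 1 of the 6 arrays (adjusted p at most 0.093) and for Tnnt1 without LUN array 1, control array 1, control array 2 or control array 3 (adjusted p at most 0.072). The summed signal of the list was 1703 to 2015 kU on the LUN arrays, against 492 to 646 on the control arrays, and 3761 to 4387 on the LON arrays of day 10. When the probes of the muscle, keratin and keratin-associated lists were struck from the calls, 170 higher and 260 lower were left. The model was not fitted or adjusted anew, so these counts do not test the part of other tissue. Muscle genes outside the list, such as Myot, Myoz1 and Tpm1, stayed in.

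Keratin-associated and keratin genes were lower where called. Of 28 keratin-associated proteins, which build the hair shaft, 7 were called lower and none higher (median log2 -1.37). Over all named genes 1.25% were called lower. Krtap19-1 read 0.379, 0.225 and 0.213 kU on the LUN arrays, against 3.05, 3.33 and 3.14 on the control arrays (log2 -3.59 ± 0.77 (SE), adjusted p = 0.0081). Its LUN signals were dim, beside a raw intensity of 197.3 units at percentile 5 of all arrays. The size of its decrease is therefore uncertain. The keratins Krt33a, Krt27 and Krt25 were lower, at log2 -2.95, -3.04 and -2.08, the only calls among 32 keratins (beside the same 1.25%). Krtap15 and Krtap1-5 were at -2.73 and -3.0. Krtap19-1, Krt27, Krt33a and Krtap1-5 had mean log2 signals of 9.64, 9.80, 9.91 and 9.96 over the 45 arrays, beside 9.562 for the median probe. Part of these means came from the LON pool of day 10, where they were log2 3.58 to 4.17 above control. Leave-one-out fits ended the call for Krt33a without LUN array 2, LUN array 3, control array 1, control array 2 or control array 3 (adjusted p at most 0.098), Krt27 without LUN array 1, control array 2 or control array 3 (adjusted p at most 0.071), Krt25 without control array 2 (adjusted p at most 0.053) and for Krtap1-5 without LUN array 2, control array 1 or control array 3 (adjusted p at most 0.07). Summed over the keratin-associated genes the signal was 22 to 37.4 kU on the LUN arrays, against 61.6 to 69.1 on the control arrays, and 612 to 646 in the LON pool. The skin marker list, 14 measured genes in which Dspp stood for Dsp through a shared synonym, held no call. Its median was log2 0.081 and its summed signal 23 to 34.3 kU on the LUN arrays, against 20.4 to 23.5 on the control arrays.

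**Figure D4:**
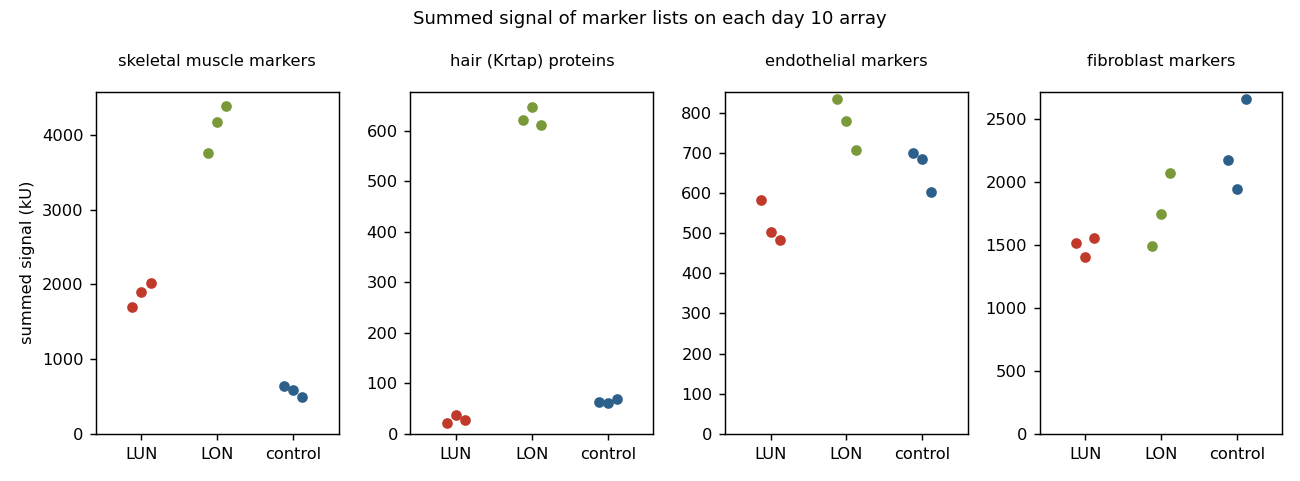
Summed signal in kU on each day 10 array (points) for 4 marker lists, with LUN, LON and control from left to right. Muscle markers reached 1703 to 2015 in LUN, above control, while the endothelial and fibroblast sums lay below control on all LUN arrays. The LUN and control arrays did not overlap for 25.7% of all named genes taken singly.

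The remaining genes among the 15 largest changes in each direction, counted among probes brighter than the median probe, belong to no list. Tshr, the thyrotropin receptor, was lower at 2.38, 2.74 and 1.69 kU in LUN fat and 11.6, 11.7 and 11.9 in control fat (log2 -2.4 ± 0.48 (SE), adjusted p = 0.0037). Kcnj14, a potassium channel gene, was lower, at log2 -2.57, Lrtm1 at -2.66 and Fmr1, which encodes an RNA-binding protein that restrains translation, at -2.39. Fjx1 and Cabcoco1 were called higher on scattered arrays, Fjx1 at 1.69, 5.8 and 5.01 kU in LUN fat and 0.627, 0.644 and 0.779 in control fat and Cabcoco1 at 2.33, 10.2 and 6.53 kU in LUN fat and 1.62, 0.813 and 0.653 in control fat (log2 2.43 and 2.5). The call was lost for Fmr1 without LUN array 3 or control array 1 (adjusted p at most 0.075) and for Cabcoco1 without LUN array 2, LUN array 3, control array 2 or control array 3 (adjusted p at most 0.083).

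Brown fat genes were not called at this age, Pdk4 apart. Ucp1 read 184, 175 and 184 kU on the LUN arrays, against 191, 148 and 193 on the control arrays, and the LUN arrays fell within the control range. The log2 change was 0.041 with a 95% interval of -0.41 to 0.49. Cidea, a droplet protein gene of brown adipocytes, read 212, 214 and 193 kU on the LUN arrays, against 176, 238 and 249 on the control arrays (log2 -0.088, interval -0.67 to 0.49), and Fabp3 read 12.7, 9.85 and 8.43 kU on the LUN arrays, against 8.75, 6.11 and 5.39 on the control arrays (log2 0.62, interval -0.096 to 1.34). Of 29 brown fat markers only Pdk4 was called. Elovl3 was at log2 1.25, Dio2, which activates thyroid hormone, at 0.80, Cox8b at 0.66, Ppargc1a at 0.39 and Prdm16 at -0.44. Muscle also expresses Fabp3, Cox8b and many respiratory chain genes, and its part in these values was not tested. None of 47 respiratory chain genes was called by limma, 33 of them had a positive change, and the median was log2 0.19, beside -0.071 over all named genes. Fatty acid oxidation (18 genes, median 0.085), the TCA cycle (14, -0.10) and ATP synthase (13, 0.24) had no call either. With median scaling the medians were -0.19 for the respiratory chain, -0.23 for fatty acid oxidation, -0.091 for ATP synthase and -0.15 for the brown fat markers, whose median was otherwise 0.041.

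Growth and translation genes were mostly uncalled. Among 33 cell cycle genes 27 had a positive change (median log2 0.36), and Mcm5, a subunit of the replication helicase, was the only call, at 28.9, 40.6 and 51.4 kU in LUN fat and 19.7, 17.5 and 21.9 in control fat (log2 1.0 ± 0.20 (SE), adjusted p = 0.0045). Cdk1 was at log2 0.63, Birc5 at 0.73 and Ccnd1 at -0.26. The 62 cytosolic ribosomal protein genes had a median of 0.26 with 53 positive and none called. With 1 array left out, the call ended for Mcm5 without LUN array 3 (adjusted p at most 0.07). Median scaling ended the Mcm5 call too (adjusted p = 0.402) and moved the median of all probes to -0.129, against -0.0216 with quantile normalization, and it turned the list medians of cell cycle genes to -0.095 and of ribosomal protein genes to -0.0064. Interferon genes (16, median -0.39), neutrophil markers (10, -0.53) and chaperones of the endoplasmic reticulum (15, -0.0028) held no call. Mrpl52 was the only call among 65 mitochondrial ribosomal genes (log2 0.92, adjusted p = 0.02, list median 0.19, and -0.28 with median scaling), and Ccl5, a T cell chemoattractant, the only call among 15 inflammation genes (log2 0.72, adjusted p = 0.037, list median -0.37). The call was lost for Mrpl52 without LUN array 1, LUN array 3, control array 2 or control array 3 (adjusted p at most 0.137) and for Ccl5 without LUN array 2, LUN array 3, control array 1, control array 2 or control array 3 (adjusted p at most 0.215). Median scaling ended both calls (Mrpl52 log2 0.49, adjusted p = 0.463, and Ccl5 log2 0.26, adjusted p = 0.69). The adiponectin receptors Adipor1 and Adipor2 were at log2 -0.19 and 0.18, Gpd1 at 0.047 and Retn, the resistin gene, at -1.1, all uncalled. With median scaling, limma called Retn lower (log2 -1.43, adjusted p = 0.0283).

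The day 10 change was then set beside the LUN change at day 5 and at day 21, each against its own control pool. Of the 92 genes called higher at day 10, 18 were called higher at day 5 (19.6% of the day 10 and 18.9% of the 95 day 5 genes, which were 0.686% of all named genes) and 22 at day 21 (23.9%, and 7.43% of the 296 day 21 genes, 2.14% of all). Of the 173 called lower, 43 were called lower at day 5 (24.9%, and 27.9% of 154, 1.11% of all named genes) and 28 at day 21 (16.2%, and 12.4% of 225, 1.63% of all). None was called in the opposite direction at day 5, whereas at day 21 this held for 16 of the genes higher and 5 of the genes lower at day 10. The 16 include the muscle genes Tnnt3, Tnnc2, Pvalb, Actn3 and Mybpc2. Of the 26 muscle markers, 13 were called lower at day 21.

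Called at all 3 ages were 10 genes higher and 17 lower in LUN fat, and those outside the lists were named after this had been seen. The higher were Irf4, Cyp2e1, Pdk4, Slc27a1, Hcar2, Mycl, Trit1, St3gal6, Rasgef1b and Kyat3. Hcar2, the hydroxybutyrate receptor that restrains lipolysis, read 18.8, 18.2 and 16.9 kU on the LUN arrays, against 6.16, 6.68 and 6.93 on the control arrays at day 10 (log2 1.45 ± 0.25 (SE), adjusted p = 6.5e-04) and was at log2 2.22 at day 5 and 1.76 at day 21. Mycl, a gene of the Myc family, changed by log2 2.68, 1.95 and 1.96 at days 5, 10 and 21. Trit1, a tRNA-modifying enzyme gene that neighbours Mycl on chromosome 4 in the RefSeq annotation, changed by 1.58, 0.97 and 1.08. Kyat3, an aminotransferase gene, was the smallest of these changes at day 10, at log2 0.88. Leave-one-out fits ended the call for Kyat3 without LUN array 1, LUN array 2, control array 1, control array 2 or control array 3 (adjusted p at most 0.09). Median scaling ended the day 10 call of Hcar2, Kyat3 and Trit1 (adjusted p = 0.051, 0.514 and 0.312).

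The 17 genes lower at the 3 ages were Lep, Mest, Tmem45b, Dgat2, Acly, Msmo1, G0s2, Ppp1r3b, Col15a1, Ptger3, Fam20c, Lpgat1, Mid1ip1, Cdr2, Dhx32, Rtn4rl1 and Tmem79. Ptger3, the prostaglandin E2 receptor that restrains lipolysis, read 5.04, 3.95 and 4.52 kU on the LUN arrays, against 17.9, 15.7 and 18.6 on the control arrays at day 10 (log2 -1.95 ± 0.21 (SE), adjusted p = 2.9e-07) and changed by log2 -1.94 at day 5 and -2.65 at day 21. Fam20c, a kinase of secreted proteins, changed by -1.63, -1.98 and -1.68 at days 5, 10 and 21. Mid1ip1, an activator of acetyl-CoA carboxylase, changed by -1.52, -1.56 and -1.65, and Lpgat1, a lysophospholipid acyltransferase gene, by -1.28, -1.71 and -1.02. The call was lost for Cdr2 without control array 2 (adjusted p at most 0.052) and for Tmem79 without LUN array 2, LUN array 3, control array 1, control array 2 or control array 3 (adjusted p at most 0.181). Tmem79 also lost it with cyclic loess.

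Levels show where the ages part. In LUN fat Lep averaged 3.98 ± 0.665, 8.57 ± 0.955 and 0.912 ± 0.411 kU at days 5, 10 and 21 (SD, 3 arrays each), and in control fat 72.1 ± 7.5, 146 ± 6.92 and 48.1 ± 9.91. Mest averaged 242 ± 38.3, 64.4 ± 4.96 and 4.63 ± 0.34 in LUN fat, and 724 ± 118, 486 ± 59.3 and 16.6 ± 1.32 in control fat. Both pools were low for Mest at day 21. Cyp2e1 averaged 11.3 ± 1.39, 91 ± 9.55 and 1093 ± 312 in LUN fat, and 5.44 ± 0.491, 9.38 ± 1.0 and 331 ± 29.9 in control fat. The Cyp2e1 level of the LUN pool at day 10 lay between those of the control pools at days 10 and 21.

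The difference between ages was itself tested in the same model. Between day 10 and day 5, 61 probes differed in their LUN change (0.185%), and 28 named genes (0.202%). Between day 10 and day 21, 394 probes did (1.19%), and 244 named genes (1.76%). Ucp1 differed in both: its LUN change at days 5, 10 and 21 was log2 -1.84, 0.041 and -2.26, so that the day 10 change exceeded that of day 5 by log2 1.88 ± 0.32 (adjusted p = 0.0029) and that of day 21 by 2.3 ± 0.32 (adjusted p = 2.4e-05). Its mean signal was 13.3 ± 2.23, 181 ± 5.61 and 162 ± 12 kU in LUN fat at days 5, 10 and 21, and 47.1 ± 4.3, 177 ± 25.2 and 779.5 ± 133 in control fat. Cidea changed by log2 -1.47, -0.088 and -0.84 at these ages, and neither of its differences passed (adjusted p = 0.179 and 0.505). Fabp3 differed from day 21 by log2 2.99 (adjusted p = 5.3e-04).

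Cyp2e1 rose more at day 10 than at either other age, by log2 2.23 ± 0.29 beyond day 5 (adjusted p = 3.5e-04) and by 1.59 ± 0.29 beyond day 21 (adjusted p = 0.002). Pdk4 rose more than at day 21 by 1.04 (adjusted p = 0.025). Lep fell less at day 10 than at day 21, a difference of 1.73 (adjusted p = 0.018), and so did Acly (1.49, 0.007) and Ppp1r3b (2.33, 2.7e-05). Scd1 fell at day 10 (log2 -3.14) but was at 1.02 at day 21, a difference of -4.16 (adjusted p = 0.027). Sncg, Sncb, Vldlr and Tmem45b fell more at day 10 than at day 21, with differences of -2.16, -2.54, -1.48 and -1.81 (adjusted p = 0.015, 0.0019, 0.011 and 0.023). No difference from either age passed for Irf4 (adjusted p = 0.889 and 0.644).

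Muscle markers supplied 17 of the 75 named genes whose change at day 10 exceeded that at day 21 (0.542% of all named genes), and 8 of the 15 that exceeded day 5 (0.108%). Their median LUN change at days 5, 10 and 21 was log2 0.46, 2.14 and -1.35, and the summed signal in control fat was 733 to 859.8, 492 to 646 and 4151 to 5029 kU at these ages. The control pool of day 10 thus held the lowest muscle signal of the 3 control pools. Mrc1 was lower at day 10 and at log2 0.86 at day 5, a difference of -1.88 (adjusted p = 0.018). Bhlhe41 exceeded both ages, by 2.65 and 2.79 (adjusted p = 0.033 and 0.005).

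**Figure D5:**
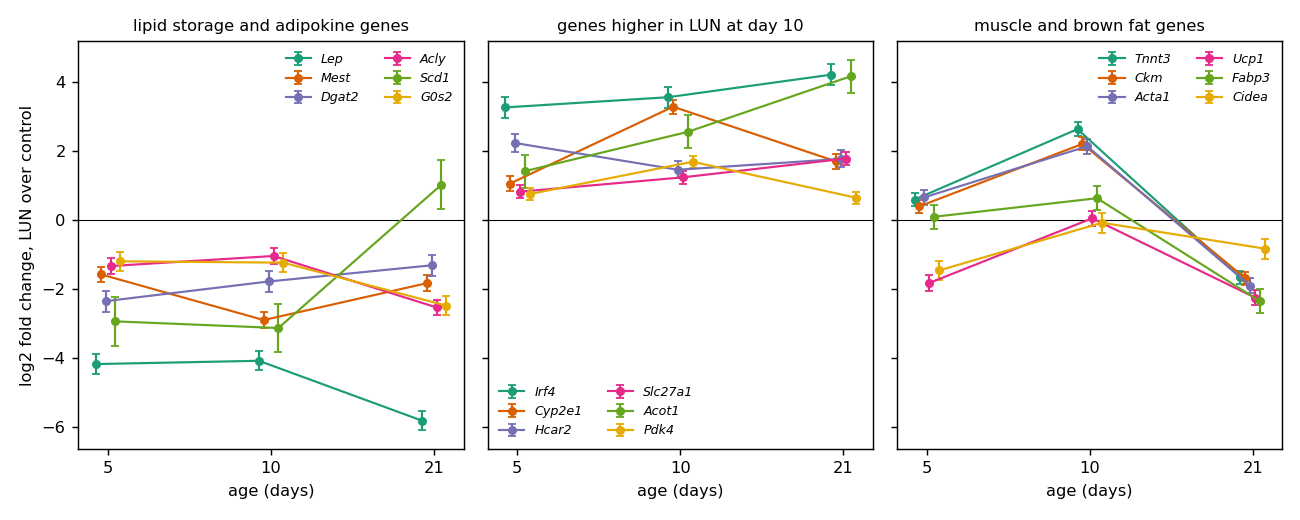
Log2 fold change of LUN over control (vertical, bars show SE) at 5, 10 and 21 days of age for genes of 3 groups, with the ages evenly spaced on the axis. Lep, Mest and Dgat2 stay below zero and Irf4, Cyp2e1 and Hcar2 above it at each age, while Ucp1 lies near zero at day 10 and the muscle genes Tnnt3, Ckm and Acta1 turn from above to below zero between days 10 and 21.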

How the data were processed

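The 45 arrays were Applied Biosystems mouse survey arrays read by chemiluminescence, with 15 pools of inguinal fat RNA (3 diets, 5 ages) measured on 3 arrays each. The authors deposited 1 table of unnormalized intensities for all arrays and 1 table of log2 values, which they had quantile normalized in Bioconductor. The intensities were quantile normalized here across all arrays and taken to log2, and the result correlated with the deposited log2 values at 0.99981. Of 33012 probes, 14411 carried 1 gene symbol, 247 carried several and 18354 carried none in the annotation used here. Symbols were updated through the gene ID for 14402 probes, and the brightest of several probes stood for a gene (13840 genes, 540 of them with several probes).

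Changes were fitted with limma 3.58.1 in R 4.3.3, with a mean for each of the 15 groups, and p-values were adjusted by the Benjamini-Hochberg method over all probes (threshold 0.05). A difference between ages was a contrast of 2 such changes. The model was tested on simulated data. The number of arrays limits the precision, and since the 3 arrays of a group share a pool, the p-values hold no variation between mice. Genes were named by a rule: the 15 largest called changes in each direction among probes brighter than the median probe whose groups did not overlap, the 5 largest differences between ages in each direction, up to 4 called members of each of 51 lists, and a set given in advance. The members and lists were chosen with earlier results of these data known. A listed symbol without a named probe was replaced by a measured gene that has it as a synonym. This brought genes such as Mtnr1b, Nckap1, Dspp, Pigq and 4930503L19Rik into lists whose names do not describe them. Signals are printed in kilounits (kU) of the normalized scale, and are not comparable between probes. Promoters came from RefSeq tables (GRCm38.p6). Figures were drawn with matplotlib 3.10.9 in Python 3.11.15.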

Additional observations from a re-analysis of the deposited data

Results flagged for a closer look

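Among the genes with a described result, the LUN change at day 10 differed from that at another age for those given here, by limma's test of the difference itself (adjusted p under 0.05 over all probes), as differences of log2 fold changes. Against day 5, the day 10 change was higher for the muscle genes Acta1 1.48, Actn3 1.87, Ckm 1.81, Pvalb 2.55, Tnnt3 2.04 and Tpm1 2.06. It was higher too for Bhlhe41 2.65, Cyp2e1 2.23 and Ucp1 1.88, and lower for Ace -2.32, Clstn1 -2.69, Jak1 -2.49, Mrc1 -1.88 and Vps37a -2.2. Ace, Clstn1 and Jak1 were not called at day 10 alone, and Jak1 was higher in LUN at day 5 (log2 1.5) and at -0.99 at day 10. With median scaling, Clstn1 and Jak1 were called lower at day 10 (limma adjusted p = 0.0385 and 0.0204).

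Against day 21, the day 10 change was higher for the muscle genes Acta1 4.05, Actc1 4.07, Actn3 4.14, Ckm 3.9, Mb 3.7, Mybpc1 3.32, Mybpc2 4.14, Myh7 3.01, Myot 3.78, Myoz1 3.91, Pvalb 3.75, Tnnc2 4.71, Tnnt3 4.3 and Tpm1 3.91. Outside muscle it was higher for Acly 1.49, Bhlhe41 2.79, Cabcoco1 3.7, Cyp2e1 1.59, Fabp3 2.99, Fjx1 3.39, Lep 1.73, Pdk4 1.04, Ppp1r3b 2.33 and Ucp1 2.3. It was lower for Alb -4.75, Apoc4 -1.98, Cars -4.08, Crct1 -3.94, Hp -1.91, Kcnj14 -2.71, Krtap15 -2.49, Krtap19-3 -3.14, Lox -1.01, Prodh -3.85, Scd1 -4.16, Sncb -2.54, Sncg -2.16, Tmem45b -1.81, Vldlr -1.48 and Vps37a -1.86. For Cars, Crct1 and Prodh the difference came with a higher level in LUN at day 21 (log2 3.24, 2.51 and 2.76). Muscle markers differ in summed signal between the control pools, and their part in the other differences was not tested.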

How the results depend on the processing

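At day 10, 189 probes were called higher and 270 lower in LUN fat. Median scaling gave 161 and 859, so that 15.8% of the calls were higher, against 41.2%. Cyclic loess gave 293 higher, and probes above the median signal 463 lower. A fit of only the arrays compared gave 32 and 28, array weights 441 and 629, and the methods' t-test 1760 and 2743 unadjusted and 35 and 42 after Benjamini-Hochberg adjustment. With pools as replicates limma called 0 and 0 (1727 probes at an unadjusted p under 0.05). Leaving out 1 array gave 94 to 215 higher and 138 to 212 lower, with the fewest higher without control array 3 and the fewest lower without control array 2. Striking the muscle and keratin list probes from the main calls, without a new fit, left 170 and 260. That choice was made after seeing the data. The replicate block gave 179 and 244; array numbers correlated at 0.102, 0.0213 and 0.0413 and were not taken as pairs.

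For the difference from day 5 (40 higher, 21 lower), median scaling gave 134 and 449, loess 67 and 39, brighter probes 61 lower, the replicate block 12 lower, only the arrays compared 0 and 0, array weights 131 and 167, and leave-outs 20 to 59 and 6 to 27. For day 21 (135 and 259), median scaling gave 681 lower, brighter probes 449 lower, only the arrays compared 62 and 91, array weights 215 and 408, and leave-outs 93 to 158 and 158 to 263. The cause of these shifts was not tested.

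Some uncalled changes turned sign. Ucp1 was at -0.34 with median scaling and -0.083 to 0.11 over the leave-outs, and Gpd1 at -0.18 and -0.052 to 0.10. Adipor2 was at -0.30 with median scaling and -0.015 to 0.40 over the leave-outs, and Cidea at -0.24 to 0.0066 over the leave-outs. With pools as replicates Ucp1 was at -0.53, Gpd1 at -0.28 and Fabp3 at -0.63. That fit took the control level from additive diet and age effects, so these values are not changes against the day 10 control pool alone. Of 98 named genes called at day 10, 58 kept the call in every leave-out. Those fits still took the spread from all groups. A fit of only the arrays compared ended the call for 69 of the 98. The methods' t-test with Benjamini-Hochberg adjustment ended it for 82, and pools as replicates for all 98.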
